A study of Homo sapiens with 12 samples.

Results

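Glycolysis splits glucose into pyruvate in the cytosol, and most endothelial cells draw much of their ATP from it and release the product as lactate. The pentose phosphate pathway branches off near its start and yields NADPH and ribose, and the glycogen pathway stores glucose and frees it again. Hexokinases trap glucose in the cell, phosphofructokinase commits it to glycolysis, and glycogen synthase and glycogen phosphorylase work in opposite directions. The 36 genes described here are enzymes and transporters of these pathways, chosen by symbol. They are 12 genes of the preparatory phase of glycolysis, 6 of its ATP-yielding phase, 4 for lactate and its transport, 6 of the pentose phosphate pathway and 8 for glycogen and galactose. All 36 had an entry among the 23398 of the deposited table, pyruvate kinase under its older symbol PKM2. All 36 passed the filter on low counts, with at least 132 counts in every library.

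Cultured human brain microvascular endothelial cells, bought from a supplier, were transfected with siRNA for 48 h, and their messenger RNA was sequenced. The groups were siGlut1 in high glucose (n = 3 libraries), non-silencing siRNA in high glucose (n = 2), siGlut1 in control medium (n = 3) and non-silencing siRNA in control medium (n = 3). siGlut1 targets SLC2A1, which encodes the glucose transporter Glut1 through which these cells take up glucose. The sources used here do not give the glucose concentrations, the siRNA sequence or whether replicates came from separate cultures, so p-values reflect only how far these libraries spread, which may be technical. The column labelled replicate 2 of non-silencing siRNA in high glucose equalled the mean of replicates 1 and 3 in 23397 of 23398 entries and was left out. Values per library are given in replicate order, 1, 2 and 3 for the groups of 3 and 1 and 3 for non-silencing high.

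Total counts per library were 40135082 to 90536476. SLC2A1 itself fell with siGlut1 in both media, by 1.61 and 1.58 on the log2 scale (adjusted p = 0.000900 in high glucose and 0.000898 in control medium). It had 7.08, 7.19 and 6.38 CPM in siGlut1 high, against 21.2 and 20.7 CPM in non-silencing high (CPM being counts scaled to library size), with 8.56, 9.05 and 6.26 CPM in siGlut1 control, against 25.7, 23.7 and 22.2 CPM in non-silencing control. All 15 endothelial markers examined were detected, CDH5 and PECAM1 at medians of 1664 and 904 CPM, and astrocyte markers summed to at most 0.153 CPM in any library. Markers of leukocytes summed to 38.1 to 73.3 CPM, of neurons or oligodendrocytes to 39.7 to 56.5, of fibroblasts to 7.45 to 41.3 and of lymphatic endothelium, mostly LYVE1, to 102.7 to 206 CPM. Of 5 epithelial markers KRT18 was the highest (median 263 CPM), EPCAM had a median of 0.376 CPM and CDH1 one of 0. Their sum was 276 to 319.6 CPM in siGlut1 high, against 344 to 355 CPM in non-silencing high, and 292 to 385 CPM in siGlut1 control, against 311 to 389 CPM in non-silencing control. Of 8 pericyte or smooth muscle markers, RGS5 had a median of 1910.5 CPM, PDGFRB one of 0.138, and KCNJ8 and DES medians of 0. The sum of that list, most of it RGS5, was 1704 to 2042 CPM in siGlut1 high, against 2377 to 2442 CPM in non-silencing high. It was 1515 to 1621 CPM in siGlut1 control, against 1844 to 2169 CPM in non-silencing control, and the part of either sum in the siGlut1 results was not tested.

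Levels between genes are compared on the deposited RPKM (reads scaled for gene length and library total), averaged over the 11 libraries. Of the 36 genes, 13 had a mean above 100 RPKM and 6 a mean below 10. GAPDH, which makes the NADH of the pathway, led with 2734 RPKM (2558 to 2901 over the libraries), the 7th highest of all entries. Alone it made up 35.6% to 40.7% of the summed RPKM of the 36 genes. The enolase ENO1 followed with 567 RPKM (516 to 611) and pyruvate kinase PKM2 with 551 (507 to 596), ranges that overlap. At the other end were PFKFB2 (0.416 RPKM) and PFKFB4 (1.45), which make and remove an activator of phosphofructokinase. The levels moved little between libraries: the ratio of the highest to the lowest library had a median of 1.28 over the genes and exceeded 1.5 in 8 of them.

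Where isozymes exist, 1 form usually had most of the transcript. HK1, the widely expressed hexokinase, had 56.3 RPKM (50.3 to 62.5), against 5.48 (4.29 to 7.31) for HK2, the form induced by insulin and hypoxia. Aldolase A (ALDOA, 281 RPKM) exceeded aldolase C (ALDOC, 5.65), and ENO1 exceeded the neuronal enolase ENO2 (7.21). The platelet-type phosphofructokinase PFKP had 131 RPKM, the liver type PFKL 45.0 and the muscle type PFKM 30.4. PFKFB3, known for its part in vessel sprouting, led its family with 16.3 RPKM, 87.3% to 91.1% of the family's sum. Lactate dehydrogenase B (LDHB, 498 RPKM) exceeded lactate dehydrogenase A (LDHA, 269.8), and LDHA made up 30.7% to 37.7% of their sum. The lactate transporters SLC16A3 (48.5 RPKM, 38.0 to 59.5) and SLC16A1 (37.1, 33.5 to 41.1) overlapped, as did brain-type and liver-type glycogen phosphorylase, PYGB with 38.9 (36.9 to 40.0) and PYGL with 30.1 (24.5 to 37.4) RPKM.

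The other enzymes of glycolysis were TPI1 (triose phosphate isomerase, 385 RPKM), PGAM1 (phosphoglycerate mutase, 247), PGK1 (phosphoglycerate kinase, 220.2) and GPI (glucose phosphate isomerase, 75.8). In the pentose phosphate pathway, the dehydrogenase PGD had 286 RPKM, the transketolase TKT 214 and the transaldolase TALDO1 138. The lactonase PGLS had 43.6 RPKM, and RPIA and RPE, which interconvert pentose phosphates, 19.7 and 19.3. Among genes for glycogen and galactose, the branching enzyme GBE1 led with 50.6 RPKM. UGP2, which makes UDP-glucose, had 38.1, the phosphoglucomutases PGM2 and PGM1 had 24.4 and 8.80, the galactokinase GALK1 21.6 and the muscle-type glycogen synthase GYS1 19.1. For 14 of the 36 genes at least 1 named pseudogene is annotated in GENCODE, 62 for GAPDH, 13 for PGAM1 and 6 each for LDHA and RPE, so that reads could be shared there. None is annotated for TKT, PGM1, PYGL, GYS1 or PFKP.

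**Figure D1:**
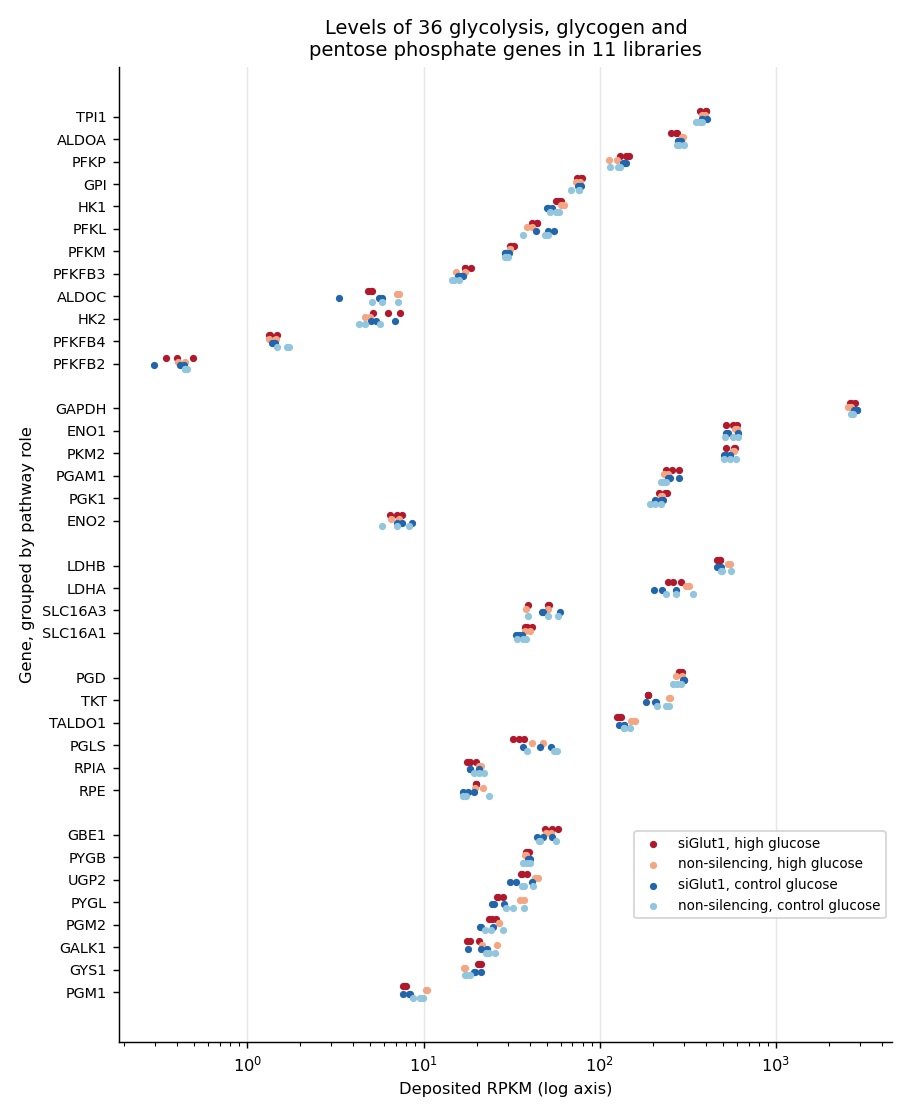
Deposited RPKM (log axis) of the 36 genes, each point 1 library, coloured by group and arranged by pathway role. GAPDH lies at 2558 to 2901 RPKM and PFKFB2 at 0.297 to 0.492, and the libraries of 1 gene lie close together next to the spread between genes.

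Comparing siGlut1 with non-silencing siRNA addresses how transcripts of glucose metabolism behave when the transporter is suppressed. Averaged over both media, 5 of the 36 genes passed the test: PYGL, PGM1 and TKT fell, and GYS1 and PFKP rose. Of these, PYGL, GYS1 and PGM1 belong to glycogen handling, TKT to the pentose phosphate pathway and PFKP to glycolysis, and each changed by less than 1.5-fold. The share of members called, 13.9%, was close to the 14.4% of all 14334 genes tested (7.93% higher and 6.49% lower). At an unadjusted p below 0.05 there were 16 of the 36 genes (44.4%, against 29.5% of all genes). The median log2 fold change was -0.03 over the 36 genes and 0.00 over all genes tested. Significance throughout is by the quasi-likelihood F test of edgeR, Benjamini-Hochberg adjusted across all tested genes, at a threshold of 0.05. In bulk RNA, fewer cells of a type and less RNA per cell cannot be told apart.

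PYGL, a phosphorylase that releases glucose from glycogen (chromosome 14, 51371935 to 51411248, hg19), had 79.5, 85.3 and 80.4 CPM in siGlut1 high, against 110.1 and 106 CPM in non-silencing high. In control glucose the values were 77.5, 74.5 and 86.6 CPM in siGlut1 control, against 97.0, 90.2 and 109 CPM in non-silencing control. Every siGlut1 library lay below every non-silencing library, across both media. The averaged log2 fold change was -0.36 ± 0.06 SE (0.781-fold, adjusted p = 0.00394). It was -0.40 ± 0.09 SE (adjusted p = 0.0372) in high glucose and -0.31 ± 0.08 SE (adjusted p = 0.0687) in control medium, short of the threshold there.

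GYS1, which builds glycogen (chromosome 19, 49471382 to 49496610, hg19), moved the other way. Its values were 79.0, 81.5 and 79.7 CPM in siGlut1 high, against 64.3 and 65.5 CPM in non-silencing high. Control medium gave 82.3, 76.1 and 74.1 CPM in siGlut1 control, against 70.3, 66.5 and 65.2 CPM in non-silencing control. All siGlut1 libraries lay above all non-silencing libraries. The averaged log2 fold change was 0.25 ± 0.05 SE (1.19-fold, adjusted p = 0.00553), with 0.30 ± 0.07 SE (adjusted p = 0.0386) in high glucose and 0.20 ± 0.06 SE (adjusted p = 0.112) in control medium.

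PGM1, the phosphoglucomutase that links glycogen to glycolysis (chromosome 1, 64058947 to 64125916, hg19), had 28.2, 27.3 and 28.5 CPM in siGlut1 high, against 36.4 and 36.3 CPM in non-silencing high. With control medium it had 30.2, 29.4 and 27.2 CPM in siGlut1 control, against 33.7, 35.7 and 30.1 CPM in non-silencing control. The high-glucose groups were apart, and in control medium siGlut1 replicate 1 lay just above non-silencing replicate 3. The averaged log2 fold change was -0.29 ± 0.06 SE (0.820-fold, adjusted p = 0.00849). It was -0.38 ± 0.09 SE (adjusted p = 0.0357) in high glucose and -0.20 ± 0.08 SE (adjusted p = 0.214) in control medium.

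TKT, the transketolase that returns pentose carbon to glycolysis (chromosome 3, 53258723 to 53290130, hg19), had 612, 611 and 610.5 CPM in siGlut1 high, against 803 and 792 CPM in non-silencing high. Its control-medium values were 688, 678 and 595 CPM in siGlut1 control, against 797, 781 and 668 CPM in non-silencing control. The control groups overlapped, with replicate 3 the lowest of each. The averaged log2 fold change was -0.29 ± 0.06 SE (0.818-fold, adjusted p = 0.00865), with -0.38 ± 0.09 SE (adjusted p = 0.0351) in high glucose and -0.19 ± 0.08 SE (adjusted p = 0.226) in control medium.

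PFKP, the phosphofructokinase with the highest level here (chromosome 10, 3109712 to 3178997, hg19), had 412, 460.2 and 447 CPM in siGlut1 high, against 351 and 389.6 CPM in non-silencing high. The control groups had 447, 429 and 445 CPM in siGlut1 control, against 396, 366 and 397 CPM in non-silencing control. All siGlut1 libraries lay above all non-silencing libraries. The averaged log2 fold change was 0.22 ± 0.05 SE (1.16-fold, adjusted p = 0.0166), and without non-silencing high replicate 1 it was 0.18 (adjusted p = 0.0980). Of the 36 genes, GYS1 and PFKP were higher in all 6 siGlut1 than in all 5 non-silencing libraries, as were 4.84% of genes tested. PYGL and LDHB were lower in all 6 than in all 5, as were 3.85% (8.69% in either direction).

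**Figure D2:**
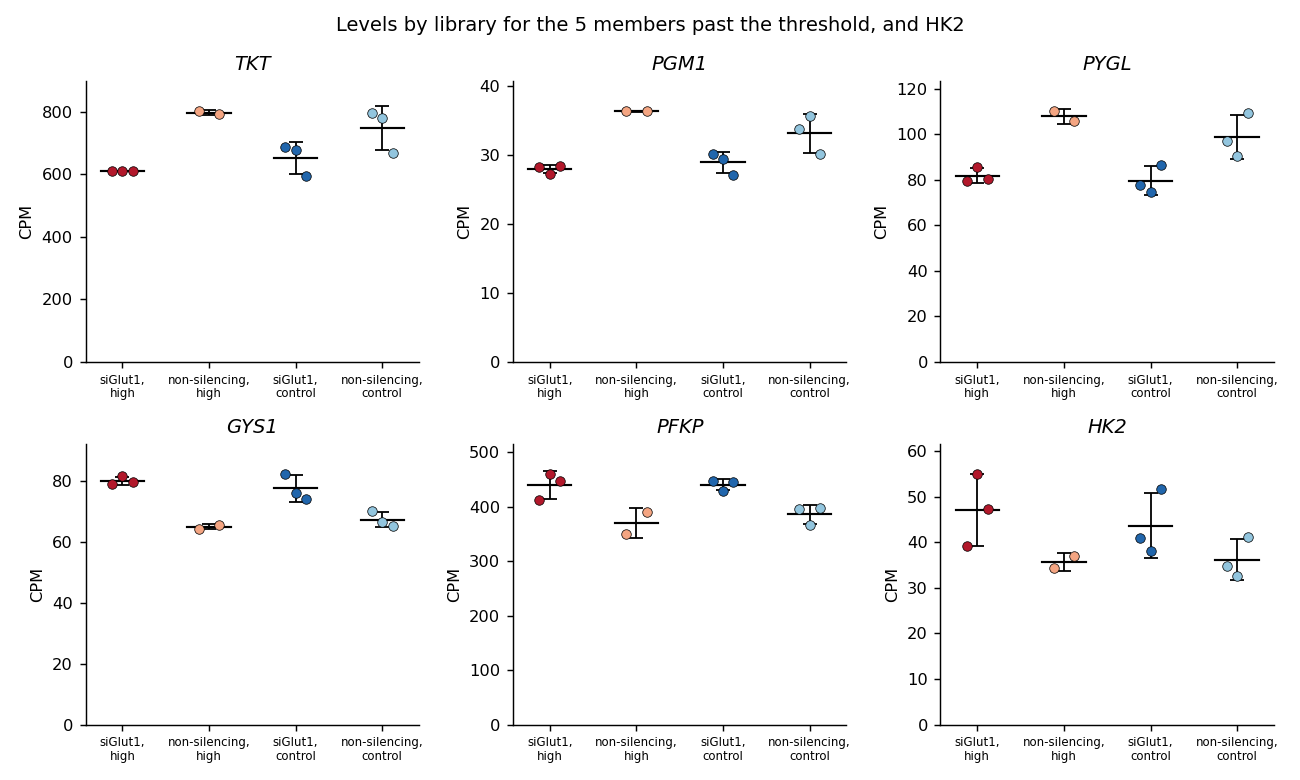
CPM by library (points) with group mean and SD for the 5 genes past the threshold and for HK2, with 3 libraries in each group except non-silencing in high glucose (2). PYGL is lower and GYS1 and PFKP are higher in every siGlut1 library, whereas the HK2 groups overlap in control medium.

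The sequences upstream of these 5 genes are shown because they are the members that moved with siGlut1. Each is the 250 bases before the RefSeq gene start (build GRCh38.p14), read 5′ to 3′ on the gene's strand, with searched motifs in capitals:
PYGL (chr14:50944484-50944733, minus strand): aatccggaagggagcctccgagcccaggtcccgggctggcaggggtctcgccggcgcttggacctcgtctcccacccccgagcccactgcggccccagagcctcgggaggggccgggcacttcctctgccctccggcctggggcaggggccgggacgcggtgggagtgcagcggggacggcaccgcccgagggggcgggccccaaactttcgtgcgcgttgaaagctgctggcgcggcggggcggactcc
GYS1 (chr19:48993310-48993559, minus strand): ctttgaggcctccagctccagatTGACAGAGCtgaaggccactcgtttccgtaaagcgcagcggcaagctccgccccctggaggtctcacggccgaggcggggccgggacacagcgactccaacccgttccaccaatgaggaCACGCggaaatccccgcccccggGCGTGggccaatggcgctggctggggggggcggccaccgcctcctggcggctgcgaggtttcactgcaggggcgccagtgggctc
PGM1 (chr1:63593161-63593410, plus strand): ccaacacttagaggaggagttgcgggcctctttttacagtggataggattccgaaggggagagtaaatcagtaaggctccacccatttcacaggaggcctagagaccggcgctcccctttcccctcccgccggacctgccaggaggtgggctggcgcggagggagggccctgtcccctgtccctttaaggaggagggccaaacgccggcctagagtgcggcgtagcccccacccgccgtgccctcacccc
TKT (chr3:53256023-53256272, minus strand): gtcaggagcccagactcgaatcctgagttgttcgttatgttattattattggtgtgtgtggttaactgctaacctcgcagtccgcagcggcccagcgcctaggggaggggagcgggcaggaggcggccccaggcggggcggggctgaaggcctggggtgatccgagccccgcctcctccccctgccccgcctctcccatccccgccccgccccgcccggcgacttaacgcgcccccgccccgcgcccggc
PFKP (chr10:3067720-3067969, plus strand): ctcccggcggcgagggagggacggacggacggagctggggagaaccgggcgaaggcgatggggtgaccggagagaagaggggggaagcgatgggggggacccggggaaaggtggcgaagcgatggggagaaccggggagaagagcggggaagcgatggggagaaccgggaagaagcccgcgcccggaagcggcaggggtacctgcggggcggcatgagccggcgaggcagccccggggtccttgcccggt
The motifs, searched on both strands, were the E-box CACGTG, the hypoxia response cores ACGTG and GCGTG, and the antioxidant response core TGACNNNGC; ACGTG lies within CACGTG. GYS1 held GCGTG and TGACNNNGC, and the other 4 sequences held no match. Of 34 members with an entry (PFKFB2 and SLC16A1 were not among them), 12 held ACGTG (35.3%), against 18.5% of 35116 RefSeq promoters of the same length. GCGTG was in 14 (41.2%, against 32.2%), TGACNNNGC in 7 (20.6%, against 10.9%) and CACGTG in 4 (11.8%, against 6.34%), which were ALDOC, GAPDH, LDHA and PGM2. Each member gave a single entry, while the background held every entry, unmatched for gene type or level. The difference in shares was not tested. A match describes letters only and is not a site of binding.

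In high glucose alone, 4 of 36 genes passed with siGlut1 (11.1%, against 4.11% of all genes). PYGL, PGM1 and TKT were lower, as were 1.65% of genes tested, and GYS1 was higher, as were 2.46%. At an unadjusted p below 0.05 there were 10 of 36 (27.8%, against 20.8% of all genes). The groups did not overlap in 21 of 36 genes, 8 higher and 13 lower with siGlut1 (58.3%), against 44.5% of all genes (22.5% higher and 21.9% lower) with 3 against 2 libraries. There were 0 calls without any 1 of the 5 high-glucose libraries, without siGlut1 control replicate 1 or without non-silencing control replicate 1. In those of these fits that kept at least 2 libraries in every group, 0.912% to 2.74% of all genes passed. Without siGlut1 control replicate 2 PYGL was the 1 call (2.78%, against 3.21% of all genes). Without both control replicates numbered 3 there were 9 (25%, against 11.8% of all genes). The log2 fold changes hardly moved when 1 library was left out, within -0.39 to -0.38 for TKT and -0.39 to -0.36 for PGM1, while the adjusted p reached 0.199 and 0.198. It reached 0.224 for PYGL (-0.43 to -0.37) and 0.229 for GYS1 (0.29 to 0.32). Fold changes in high glucose also went with gene length (Spearman's rho 0.24 across all genes, which are not independent), and the 4 genes were called as well with that trend removed.

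In control medium 0 of 36 genes passed with siGlut1, against 2.96% of all genes (1.7% higher and 1.26% lower). At an unadjusted p below 0.05 there were 7 (19.4%, against 17.4% of all genes). DESeq2 called 2, GYS1 and PYGL (5.56%, against 7.35% of all genes). The groups did not overlap in 9 of 36 genes, 7 higher and 2 lower (25%), against 20.5% of all genes (10.9% higher and 9.59% lower). For 35 of the 36 genes the 95% interval of the fold change lay within 1.5-fold in either direction, with ALDOC the exception. In high glucose this held for 32 genes, with HK2, PYGL, ALDOC and PGLS outside. The effect of siGlut1 was not shown to differ between media for any member: 0 of 36 and 0% of all genes passed the interaction test in edgeR, with 0 of 36 at an unadjusted p below 0.05 (2.75% of all genes) and 0 of 36 by DESeq2. For TKT the difference between media was -0.19 ± 0.12 SE on the log2 scale (95% interval -0.45 to 0.07).

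**Figure D3:**
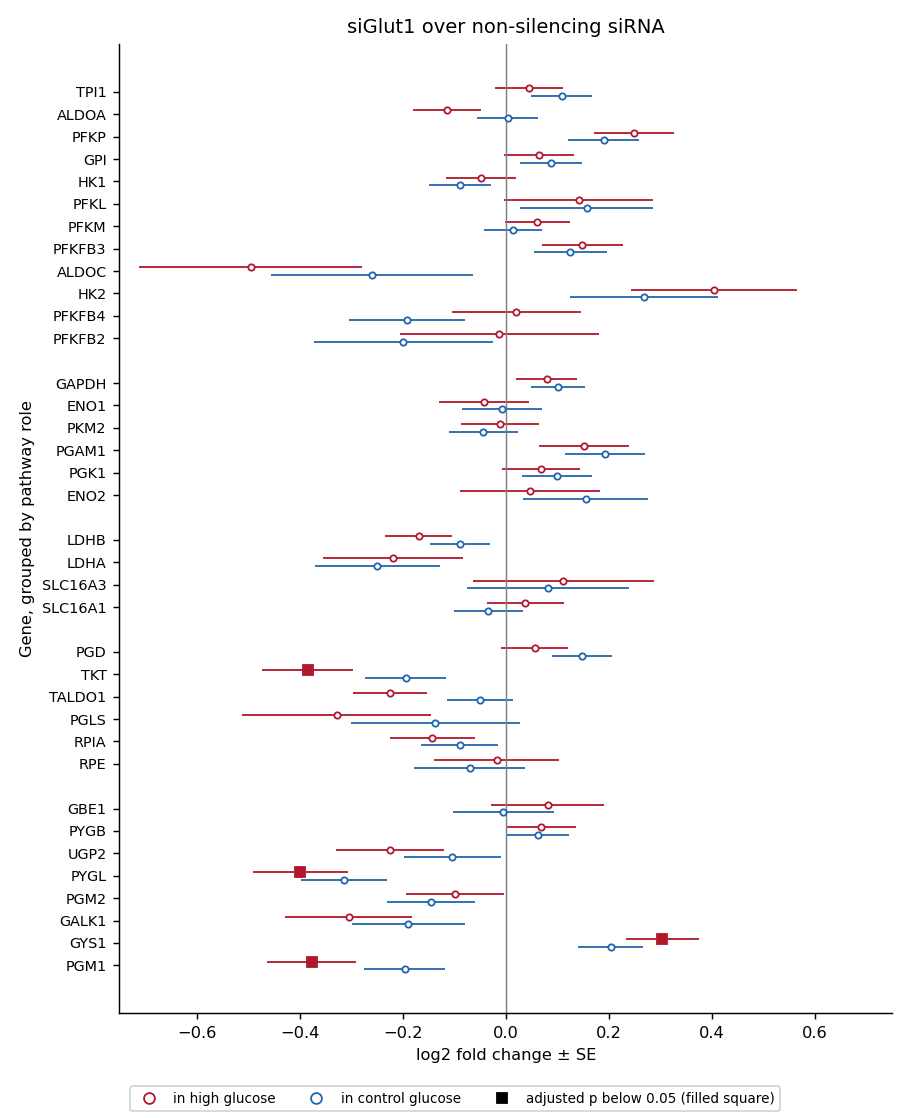
Log2 fold change (± SE) of siGlut1 over non-silencing siRNA for the 36 genes in high glucose and in control medium, by pathway role. The calls at an adjusted p below 0.05 are TKT, PYGL, GYS1 and PGM1 in high glucose. Of the 36 genes, 32 have the same sign in both media, and the share among all genes was not computed.

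None of the 6 genes of the ATP-yielding phase passed in any of the 7 comparisons of the reported fit. GAPDH had 4550.4, 4593 and 4804 CPM in siGlut1 high, against 4284 and 4519 CPM in non-silencing high. It also had 4832, 4963 and 4936 CPM in siGlut1 control, against 4552, 4654 and 4526 CPM in non-silencing control. It was higher with siGlut1 without overlap in each medium, as were 22.5% of all genes in high glucose and 10.9% in control medium. Its averaged log2 fold change was 0.09 ± 0.04 SE (95% interval 0.00 to 0.18, adjusted p = 0.150). ENO1 gave -0.03 ± 0.06 SE (adjusted p = 0.815), and PGAM1, the largest of the phase, 0.17 ± 0.06 SE (adjusted p = 0.0720). PGAM1 passed in 4 of 20 alternative fits, among them DESeq2 (0.17, adjusted p = 0.0387) and the length correction (0.20, adjusted p = 0.0334). In the preparatory phase, TPI1 gave 0.08 ± 0.04 SE (adjusted p = 0.281) and ALDOA -0.06 ± 0.04 SE (adjusted p = 0.444).

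HK2 had the largest positive averaged value of the list, 0.34 ± 0.11 SE on the log2 scale (95% interval 0.10 to 0.57), short of the threshold (adjusted p = 0.0595). It passed in some alternative fits, among them DESeq2 and the replicate block. It had 39.1, 55.1 and 47.3 CPM in siGlut1 high, against 34.3 and 37.0 CPM in non-silencing high, as well as 41.0, 38.2 and 51.8 CPM in siGlut1 control, against 34.8, 32.6 and 41.2 CPM in non-silencing control. Groups were apart in high glucose and overlapped in control medium. HK1 gave -0.07 ± 0.05 SE (adjusted p = 0.342). The share of HK2 in the summed hexokinase RPKM was 8.41%, 10.8% and 9.73% in siGlut1 high, against 6.92% and 7.64% in non-silencing high. That share was 9.15%, 9.12% and 11.9% in siGlut1 control, against 7.65%, 7.60% and 8.78% in non-silencing control. It was higher with siGlut1 in both media without overlap, and was not tested. Of all single genes, 22.5% in high glucose and 10.9% in control medium were higher with siGlut1 without overlap. Among the other isozyme shares, those of ALDOC and PGM2 did not overlap in high glucose, nor did that of PFKFB3 in control medium.

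ALDOC had the lowest averaged value of the list, -0.38 ± 0.15 SE (95% interval -0.70 to -0.06, adjusted p = 0.110), at a low level. It passed without both control replicates numbered 3 (-0.34, adjusted p = 0.0167) and with the replicate numbers as a block (-0.42, adjusted p = 0.0473). It had 9.0, 8.46 and 8.86 CPM in siGlut1 high, against 12.1 and 12.6 CPM in non-silencing high. It was lower there without overlap, as were 21.9% of all genes. Control medium gave 9.99, 10.2 and 5.78 CPM in siGlut1 control, against 10.1, 12.6 and 8.61 CPM in non-silencing control, where siGlut1 replicate 3 was the lowest and the groups overlapped.

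Of the genes for lactate, LDHA had 662, 781 and 711 CPM in siGlut1 high, against 816 and 855 CPM in non-silencing high. Its values in control medium were 622, 556 and 729 CPM in siGlut1 control, against 730.3, 650.04 and 886 CPM in non-silencing control, and those groups overlapped. The averaged log2 fold change was -0.23 ± 0.09 SE (adjusted p = 0.110). It passed without siGlut1 control replicate 3 (-0.29, adjusted p = 0.0499) and without both control replicates numbered 3 (-0.23, adjusted p = 0.0265). LDHB gave -0.13 ± 0.04 SE (adjusted p = 0.0729), with 789 to 824 CPM over the 6 siGlut1 libraries, against 825 to 919 CPM over the 5 non-silencing libraries. LDHB passed in 2 of 20 alternative fits, among them DESeq2 (-0.13, adjusted p = 0.0184). SLC16A1 gave 0.00 ± 0.05 SE (95% interval -0.11 to 0.11) and SLC16A3 0.10 ± 0.12 SE (-0.16 to 0.35), neither past the threshold.

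In the pentose phosphate pathway, TKT was the 1 gene of 6 past the threshold. TALDO1, which works beside it in the non-oxidative arm, gave -0.14 ± 0.05 SE (adjusted p = 0.0810), and the lactonase PGLS -0.23 ± 0.12 SE (adjusted p = 0.236). PGD, of the oxidative arm, had the opposite sign, 0.10 ± 0.04 SE (adjusted p = 0.141). Of all counts, the 6 genes together took 0.147%, 0.148% and 0.151% in siGlut1 high, against 0.175% and 0.171% in non-silencing high. Their share was 0.159%, 0.161% and 0.153% in siGlut1 control, against 0.171%, 0.163% and 0.161% in non-silencing control, where the groups overlapped slightly. Over all 36 genes the share was 1.67% ± 0.0698 in siGlut1 high (SD, n = 3), 1.72% ± 0.0364 in non-silencing high (SD, n = 2), 1.69% ± 0.0658 in siGlut1 control and 1.68% ± 0.0734 in non-silencing control (SD, n = 3 each), with ranges that overlap.

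Among the 8 genes for glycogen and galactose, PYGL and PGM1 fell, GYS1 rose, and 5 did not pass in the averaged comparison. GALK1 gave -0.25 ± 0.08 SE (adjusted p = 0.0681), UGP2 -0.16 ± 0.07 SE (adjusted p = 0.144) and PGM2 -0.12 ± 0.06 SE (adjusted p = 0.231). The other phosphorylase, PYGB, gave 0.07 ± 0.04 SE (95% interval -0.03 to 0.16, adjusted p = 0.363), and GBE1 0.04 ± 0.07 SE (adjusted p = 0.772). The share of PYGB in the summed phosphorylase RPKM was 59.3%, 58.1% and 59.9% in siGlut1 high, against 50.4% and 51.8% in non-silencing high. It was 61.2%, 62.0% and 57.5% in siGlut1 control, against 55.3%, 56.7% and 49.7% in non-silencing control. The groups did not overlap in either medium, while 44.5% of all single genes in high glucose and 20.5% in control medium did not overlap. The share holds the same PYGL values as the call above and was not tested.

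**Figure D4:**
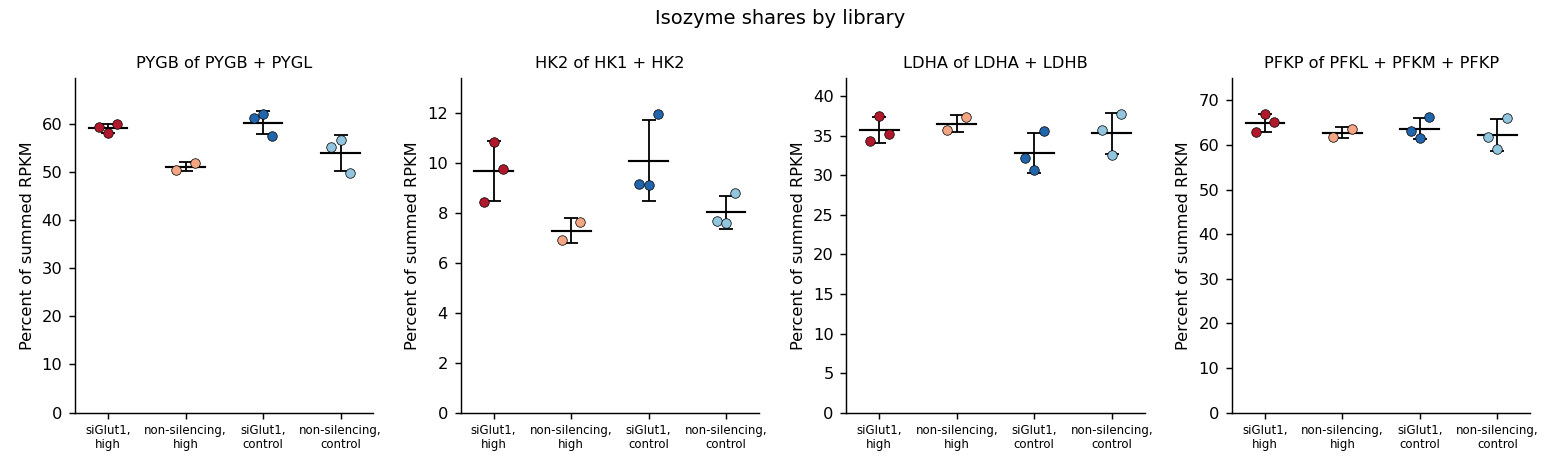
Share (percent of summed RPKM) of PYGB, HK2, LDHA and PFKP within their isozyme families, by library (points) with group mean and SD. PYGB and HK2 shares are higher in every siGlut1 library than in the non-silencing libraries of the same medium, while LDHA and PFKP shares overlap in both media.

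Of 67 further genes of these pathways with an entry, 48 were tested. In control medium 1 of the 48 passed with siGlut1 (2.08%, against 2.96% of all genes). This was PGM2L1, which fell by 0.46 on the log2 scale (adjusted p = 0.0312), a call lost in 9 of 21 alternatives. None of the 48 passed with siGlut1 in high glucose, against 4.11% of all genes. In the averaged comparison 3 rose and 4 fell (14.6%, against 14.4% of all genes). SLC37A4, the carrier of glucose phosphate into the endoplasmic reticulum, fell by 0.35 on the log2 scale (adjusted p = 0.00997), the AMPK catalytic subunit PRKAA1 by 0.33, PGM2L1, which makes glucose bisphosphate, by 0.31 and the phosphorylase kinase subunit PHKG2 by 0.25. NHLRC1 (malin), which acts on glycogen metabolism, rose by 0.63, BPGM, which makes bisphosphoglycerate, by 0.22 and the glucose phosphatase G6PC3 by 0.20. Each of these 7 calls was lost without at least 1 library. Without non-silencing high replicate 1 NHLRC1 gave 0.55 (adjusted p = 0.0588), PGM2L1 -0.27 (adjusted p = 0.0833) and G6PC3 0.21 (adjusted p = 0.0561). Without non-silencing high replicate 3 SLC37A4 gave -0.32 (adjusted p = 0.0537), BPGM 0.20 (adjusted p = 0.0937), G6PC3 0.19 (adjusted p = 0.0730), PRKAA1 -0.32 (adjusted p = 0.115) and PHKG2 -0.20 (adjusted p = 0.142). PRKAA1 and PHKG2 were lost without 6 other libraries each as well.

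Comparing high with control glucose addresses whether the medium moves these transcripts. None of the 36 genes passed with siGlut1, with non-silencing siRNA or on average, against 0.014%, 0% and 0.412% of all genes in edgeR. At an unadjusted p below 0.05 there were 3, 0 and 3 of 36 (8.33%, 0% and 8.33%, against 15.2%, 5.4% and 16.9% of all genes). DESeq2 called 0, 0 and 1, which was HK1, against 3.01%, 0.23% and 3.77% of all genes. Glucose fold changes with siGlut1 went with gene length (Spearman's rho 0.38 across all genes, which are not independent). With that trend removed none of the 36 genes passed either, against 0.014%, 0% and 0.349% of all genes. With siGlut1 the groups did not overlap in 8 of 36 genes, 5 higher and 3 lower (22.2%), against 22.5% of all genes (10.8% higher and 11.7% lower). With non-silencing siRNA they did not overlap in 8, 6 higher and 2 lower (22.2%), against 17.8% (8.61% higher and 9.21% lower). On average over the siRNAs, the 95% interval of all 36 genes lay within 1.5-fold in either direction. This held for 35 genes with siGlut1, with PGLS outside, and for 34 with non-silencing siRNA, with ALDOC and PGLS outside. Median log2 fold changes of the members were 0.00 with siGlut1, 0.05 with non-silencing siRNA and 0.03 on average, against -0.02, -0.02 and -0.01 over all genes. These comparisons use the same libraries as those of siGlut1.

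PGLS had the largest averaged glucose value, -0.29 ± 0.12 SE (adjusted p = 0.266). It had 40.9, 35.2 and 38.4 CPM in siGlut1 high, against 51.0, 58.6 and 40.0 CPM in siGlut1 control, as well as 44.5 and 51.3 CPM in non-silencing high, against 60.0, 63.4 and 41.3 CPM in non-silencing control. PFKL gave -0.20 ± 0.10 SE (adjusted p = 0.310), with 161, 149 and 159 CPM in siGlut1 high, against 187, 201 and 156 CPM in siGlut1 control, as well as 137 and 146 CPM in non-silencing high, against 176, 184 and 128 CPM in non-silencing control. In both genes replicate 3 was the lowest of each control group, within or below the high-glucose libraries. HK1 gave 0.15 ± 0.05 SE (adjusted p = 0.164), LDHA 0.16 ± 0.09 SE (adjusted p = 0.391), PGM2 0.12 ± 0.06 SE (adjusted p = 0.377) and ENO2 -0.09 ± 0.09 SE (adjusted p = 0.637).

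These glucose values turned on the control replicates numbered 3. Leaving out libraries that lie apart lowers the spread, so calls made without them are not an independent check. Without both of them, 9 of 36 genes (25%) passed in the averaged glucose comparison, against 2583 of 14236 genes (18.1%). PGLS then gave -0.44 (adjusted p = 0.00530), PFKL -0.33 (adjusted p = 0.00491), LDHA 0.28 (adjusted p = 0.0146) and PGM2 0.20 (adjusted p = 0.0182). Without non-silencing control replicate 3 alone, PGLS (-0.38, adjusted p = 0.0478) and PFKL (-0.28, adjusted p = 0.0423) passed. These were 5.56% of the 36 genes, close to the 5.86% of all genes tested. The labels do not say which of the named library kits was used for which library.

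**Figure D5:**
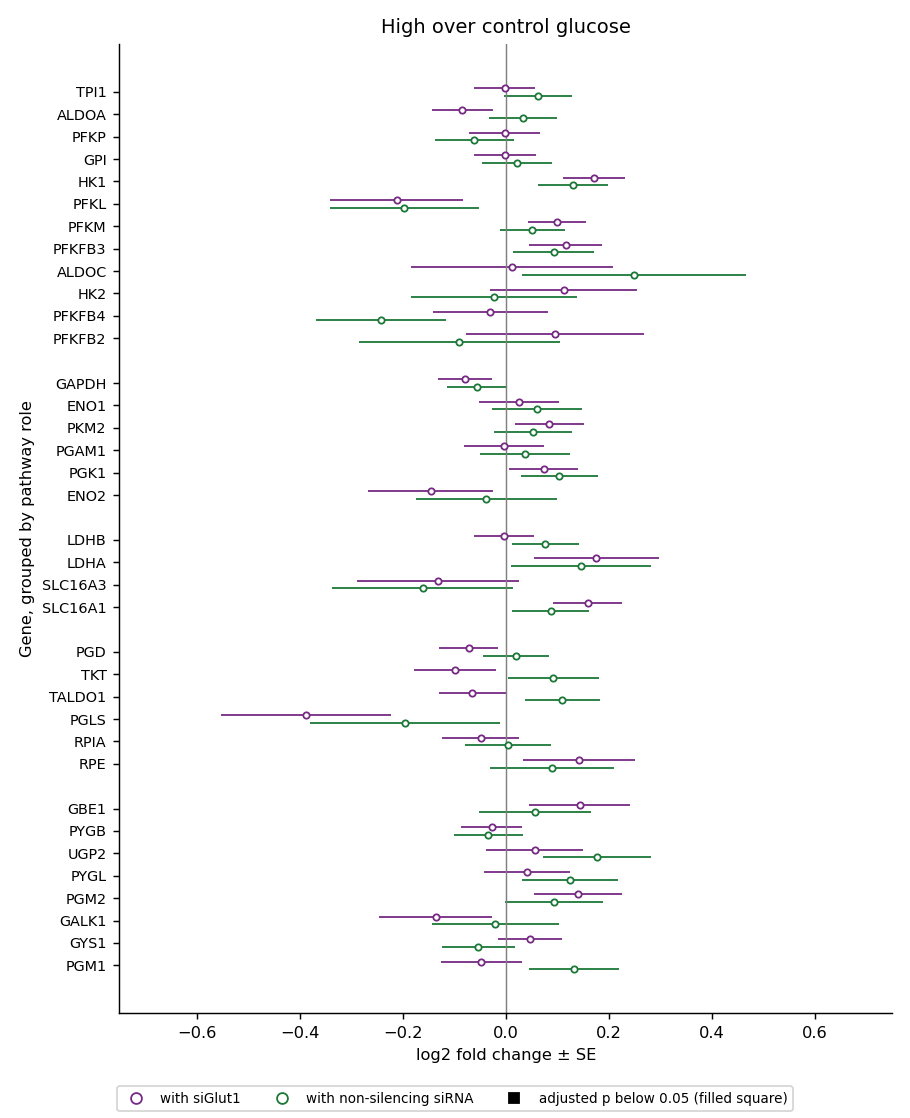
Log2 fold change (± SE) of high over control glucose for the 36 genes with siGlut1 and with non-silencing siRNA, by pathway role. No gene passed the threshold (0 of 36 with either siRNA), and PGLS with siGlut1 has the lowest value, -0.39.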

How the data were processed

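Messenger RNA was sequenced in 12 samples, labelled as 4 groups of 3; the labels' protocols name the TruSeq stranded and SMARTER kits. The submitters' processing notes name hg19 and DESeq2; no aligner, counter, annotation or strand setting is named in the sources. The table holds whole-number counts as deposited, even in all 11 libraries used, and RPKM values that the authors made, per the file headers; gene lengths come from the same deposited table.

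After 101 entries with repeated symbols were dropped, 23297 were fitted in R 4.3.3 with edgeR 4.0.16 (filterByExpr, 14334 genes; TMM factors 0.975 to 1.03; 4 group means, 7 residual degrees of freedom, no block), a step tested on simulated data. SE is the size of the log2 fold change over the square root of F, and 95% intervals are per gene; tests are two-sided. Genes past the threshold, and those with most RPKM or the largest averaged change of each role, were named by rule; statistics of HK1, HK2, GALK1, UGP2, TALDO1, SLC16A1 and SLC16A3 were added after their values were seen. Members and lists were chosen with earlier results of these data known, and 1 further pathway gene is not reported here. Alternatives were DESeq2 1.42.0 (and its size factors), a replicate block, other filters, only the 2 groups compared and a length correction. Others left out libraries (also both control replicates numbered 3 together), used all 12 columns or, chosen after seeing the data, halved counts. The control replicates numbered 3 stand apart in these data, and leaving out such libraries lowers the spread.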

Additional observations from a re-analysis of the deposited data

How the results depend on the processing

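The averaged siGlut1 calls of PYGL, PGM1, TKT and GYS1 held in all 20 alternatives run, with log2 fold changes of -0.39 to -0.32, -0.32 to -0.26, -0.33 to -0.26 and 0.23 to 0.27; that of PFKP was lost in 1. With DESeq2 the members called for averaged siGlut1 were 10 (27.8%, against 2782 of all genes, 19.4%), the 5 above with GALK1, HK2, LDHB, PGAM1 and TALDO1. There were 6 for siGlut1 in high glucose (16.7%, against 9.14%), 2 in control medium (5.56%, against 7.35%) and 1 for averaged glucose (2.78%, against 3.77%). It called 1310 and 1053 genes for siGlut1 in high glucose and control medium, 432 and 33 for glucose with siGlut1 and non-silencing siRNA, and 540 for averaged glucose. With all 12 columns these members were 10 (27.8%, against 22.5% of 14116 genes), 6 (16.7%, against 12.8%), 1 (2.78%, against 5.84%) and 1 (2.78%, against 3.02%). The genes called with all 12 columns were 1807, 824, 36, 11 and 427, and 3182 for averaged siGlut1. The added column equals the mean of 2 others in nearly all entries, so calls held there are no independent check. Halved counts rescale the same libraries, so the same holds for them. Without both control replicates numbered 3, members were 12 for averaged siGlut1 (33.3%, against 2534 of 14236 genes, 17.8%) and 9 for siGlut1 in high glucose (25%, against 11.8%). They were 9 for averaged glucose (25%, against 18.1%) and 2 for glucose with siGlut1 (5.56%, against 5.16%). The genes, in the order given for DESeq2, were 1674, 247, 735, 48 and 2583. Only the 2 groups compared gave 1149 genes for siGlut1 in high glucose, 70 in control medium and 0 for glucose with siGlut1. The reported fit called 589, 424, 2, 0 and 59 genes in the DESeq2 order, and 2066 for averaged siGlut1.

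With 1 library left out, members ranged from 0 to 4 for siGlut1 in high glucose, 4 to 9 for averaged siGlut1 and 0 to 2 for averaged glucose. Genes ranged from 6 to 1077 for siGlut1 in high glucose, 131 to 343 in control medium, 1000 to 2497 for averaged siGlut1, 0 to 17 and 0 to 2 for glucose with siGlut1 and non-silencing siRNA, and 0 to 836 for averaged glucose. Where this left 1 library in non-silencing high, it was assumed to vary like the other groups. Deviations of same-numbered siGlut1 and non-silencing libraries correlated at 0.0936, 0.353 and 0.536 in control medium and 0.233 and 0.192 in high glucose. Those of high and control libraries correlated at -0.252 to 0.24. The 2 libraries of non-silencing high deviate equally in opposite directions, so 0.233 and 0.192 are not separate values. As not every pair exceeded 0.1, no pairing was used, though all siGlut1 and non-silencing pairs were positive. The labels do not say what the replicate numbers mean. As a replicate block they moved the averaged siGlut1 members to 8, adding ALDOC, GALK1 and HK2 (22.2%, against 2190 genes, 15.3%), and those in high glucose to 2, PGM1 and TKT (5.56%, against 597 genes, 4.16%). The uncalled averaged values of ENO1 and ENO2 changed sign near 0: siGlut1 for ENO1 was 0.00195 without siGlut1 high replicate 1 (-0.058 to 0.00195 with 1 library left out), and glucose for ENO2 was 0.00823 without both control replicates numbered 3. The cause of these changes was not tested. Depth was not varied; the member with fewest counts, PFKFB2 (132 to 350 counts per library), had an SE of 0.17 for siGlut1 in control medium, against a median of 0.08 over the members. Intervals and p-values do not cover the unknown origin of the replicates.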
